A study of Mus musculus with 22 samples.

Results

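The 5 genes described here, Frrs1, Gm34045, Gm36251, Gm40250 and Tm6sf2, are among 23037 genes matched in a table of brain RNA-seq counts. They were chosen for small p values between wild-type (WT) mice and mice deficient in circTulp4 (CD), a circular RNA of the Tulp4 gene. Frrs1, Gm34045 and Gm36251 were chosen in the hippocampus, Gm40250 in the cortex, and Tm6sf2 in the comparison of genotypes over the hippocampus, cortex and cerebellum together. The genotype difference in those contrasts is therefore what chose each gene, and it is given as a description with no test. The other regions of the same mice had no part in choosing the former 4 genes, and there the question was whether the difference returned.

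Hippocampus, cortex and cerebellum were taken from 8 mice, 4 WT (mice m162, m164, m240 and m244) and 4 CD (mice m118, m138, m190 and m242), and profiled in 22 libraries. The method was CelSeq2, a 3′ RNA-seq protocol in which reads are counted near the poly(A) tail of each transcript. There were 3 WT and 4 CD hippocampi (none from WT mouse m164), 4 WT and 4 CD cortices, and 4 WT and 3 CD cerebella (none from CD mouse m138). In CD mice, the splice acceptor AG from which the circular RNA of Tulp4 is backspliced had been replaced by TC in C57BL/6 zygotes with CRISPR/Cas9. A second change had been made in the neighbouring protospacer adjacent motif. The line descends from 1 mosaic founder male. The labels list 1 library more in each group than the design text of the series does, without saying which, and all the labelled libraries were used. No treatment was given, and the labels state neither age nor sex of these mice. Counts of Xist were 675 to 3029 in all 22 libraries while Ddx3y and Uty had 0 or 1, the pattern of females. The deposited tissue labels were borne out by 8 markers each. Hippocampal markers summed to 1860 to 2597 cpm (counts scaled to a common library size) in hippocampi and 186 to 294 cpm in cortices. Cortical markers summed to 2174 to 2652 cpm in cortices and 612 to 789 cpm in hippocampi, and cerebellar markers summed to 7761 to 8349 cpm in cerebella and at most 442 cpm elsewhere. With 1 transcript per gene, libraries held 2760846 to 8858937 counts, so that 1 count was worth 0.116 to 0.396 cpm. On Tulp4, the counts by which transcript NM_054040 exceeds NM_001103181, which differs from it in a first exon that is part of the circular RNA, separated WT and CD libraries in the cortex (1.45 to 6.02 against 0.141 to 1.29 cpm) and cerebellum (3.12 to 13.6 against 0.599 to 2.61 cpm). In the hippocampus, the library labelled CD of mouse m118 had 3.97 cpm, against 2.71 to 3.69 cpm in WT and 0.423 to 0.573 cpm in the other 3 CD libraries. By this measure, which rests on 16 counts there, the library went against its label. The cortex and cerebellum of mouse m118 were at 0.896 and 1.55 cpm, within the CD ranges. Counts were few in the cortex too, with 4 in WT mouse m244 and 8 in CD mouse m190. Genotype differences of the 5 genes and counts of gene lists in the hippocampus are given with and without the hippocampus library of mouse m118.

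Frrs1 encodes ferric chelate reductase 1, a membrane protein of the cytochrome b561 family that reduces ferric to ferrous iron, the form that iron transporters carry. Tm6sf2 encodes a protein of the endoplasmic reticulum and Golgi with an EXPERA domain, known for its part in loading lipid onto the lipoprotein particles that the liver secretes. Gm34045, Gm36251 and Gm40250 are annotated as long noncoding RNAs, transcripts without a long reading frame, and bear only the provisional names of mouse gene models.

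In GRCm38, the build to which the authors aligned their reads, Frrs1 lies on the plus strand at chr3:116859567-116907714, Gm34045 on the minus strand at chr10:119135154-119140827, Gm36251 on the minus strand at chr9:113043354-113123427, Gm40250 on the minus strand at chr4:126614367-126614785, and Tm6sf2 on the plus strand at chr8:70072924-70080066. RefSeq promoter windows of GRCm38.p6, from 250 bases before to 50 bases after an annotated start, were found for Frrs1 (2 starts), Gm34045 (1 start) and Gm36251 (8 starts), and a window of each is shown because the hippocampal levels of these 3 genes are the ones that separated the genotypes. Capitals mark the only matches to the 4 motifs searched on both strands, namely the TATA box with letters TATAAA, the CCAAT box, the GC box with letters GGGCGG and the E-box with letters CACGTG, with no overlap between matches. They are a CCAAT that begins 120 bases before the start of Frrs1 at chr3:116859317-116859616, a TATAAA that begins 29 bases before that of Gm34045 at chr10:119140778-119141077, and a CCAAT that begins 78 bases before that of Gm36251 at chr9:113123378-113123677. Each sequence runs 5′ to 3′ on the strand of its gene.
Frrs1: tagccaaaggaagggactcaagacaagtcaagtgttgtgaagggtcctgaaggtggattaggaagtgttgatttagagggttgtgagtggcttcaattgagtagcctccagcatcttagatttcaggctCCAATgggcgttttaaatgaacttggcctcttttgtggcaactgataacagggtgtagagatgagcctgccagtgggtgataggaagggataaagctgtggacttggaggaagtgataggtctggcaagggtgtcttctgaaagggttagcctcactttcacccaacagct
Gm34045: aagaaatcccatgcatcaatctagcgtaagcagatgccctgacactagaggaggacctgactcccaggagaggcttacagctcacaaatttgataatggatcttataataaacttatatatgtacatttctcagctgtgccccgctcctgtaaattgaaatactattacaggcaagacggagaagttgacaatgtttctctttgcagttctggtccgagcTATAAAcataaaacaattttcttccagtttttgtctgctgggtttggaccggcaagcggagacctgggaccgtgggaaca
Gm36251: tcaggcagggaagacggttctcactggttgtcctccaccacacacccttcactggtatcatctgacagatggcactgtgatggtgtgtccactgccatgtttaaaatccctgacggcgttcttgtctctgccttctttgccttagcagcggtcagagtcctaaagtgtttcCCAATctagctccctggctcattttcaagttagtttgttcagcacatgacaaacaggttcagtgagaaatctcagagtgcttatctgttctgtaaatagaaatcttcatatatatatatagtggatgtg
Among 32851 mouse promoter windows of this length, the CCAAT box was found in 37.4%, the TATA box in 13.6%, the GC box in 35.7% and the E-box in 7.15%. The second start of Frrs1, at chr3:116861430-116861729, held none of the 4 motifs.

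Frrs1 was lower in CD than in WT hippocampi, and in the cortex and cerebellum its CD mean was lower too, with overlapping groups and no call. In WT hippocampi it had 100, 102 and 137 counts (mice m162, m240 and m244), and in CD hippocampi it had 9, 55, 43 and 48 counts (mice m118, m138, m190 and m242). All 4 CD libraries lay below all 3 WT libraries, which is how 2.76% of the 9964 genes tested in the hippocampus behaved. After scaling for library size with the trimmed mean of M values (TMM), the level was 17.6 ± 5.66 cpm (SD, n = 3) in WT and 5.43 ± 2.12 cpm (SD, n = 4) in CD hippocampi, 3.24 times as high in WT. Without the library of mouse m118, whose 9 counts were the fewest, CD hippocampi had 6.48 ± 0.256 cpm (SD, n = 3), and the ratio was 2.72. In a bulk library, fewer cells that express a gene and less RNA of it per cell cannot be told apart. As a description of the contrast that chose it, Frrs1 had a log2 fold change of -1.63 (SE, 0.30; -1.42 without mouse m118) and rank 1 of 9964 by p, with an FDR (Benjamini-Hochberg) of 0.9975 in the quasi-likelihood test of edgeR. With a call set at an FDR under 0.01 and a change of more than 2-fold either way, 0.0% of the genes tested in the hippocampus were called by that test (0 genes, with 420 at an unadjusted p below 0.05, and 2 by DESeq2, Frrs1 and Gm34045).

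**Figure D1:**
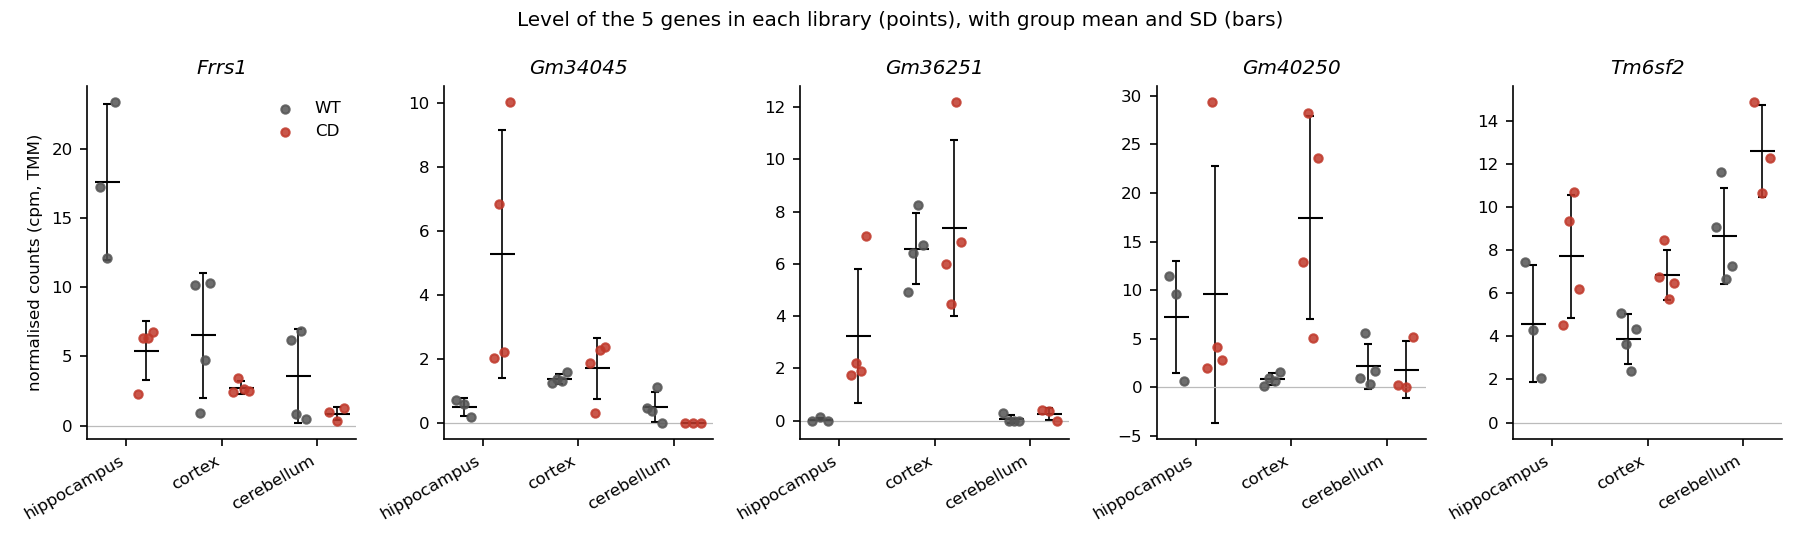
Level of each gene (y axis, cpm scaled by TMM) in every library (points, WT grey and CD red) of the 3 regions (x axis), with group mean (dash) and SD (bar). Frrs1 is lower in all 4 CD hippocampi, Gm34045 and Gm36251 are higher in all 4, and Gm40250 is at 5.05 to 28.3 cpm in CD cortices against at most 1.58 cpm in WT cortices.

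In the cortex, a region that had no part in choosing Frrs1, the counts were 66, 4, 22 and 26 in WT mice m162, m164, m240 and m244 and 13, 23, 15 and 20 in CD mice m118, m138, m190 and m242. The CD libraries were close to each other, at 2.74 ± 0.463 cpm (SD, n = 4), and the WT libraries were spread out, at 6.53 ± 4.54 cpm (SD, n = 4), with mouse m164 at 0.914 cpm below every CD cortex. The log2 fold change of -1.23 (SE, 0.49) did not pass the thresholds (FDR = 0.9998 in the edgeR test) at an unadjusted p of 0.0241, and 3.3% of the 9927 genes tested had an unadjusted p below 0.05. In the cerebellum the WT counts were 41, 5, 37 and 3 (mice m162, m164, m240 and m244) and the CD counts were 5, 2 and 10 (mice m118, m190 and m242). These are 3.6 ± 3.38 cpm (SD, n = 4) and 0.875 ± 0.454 cpm (SD, n = 3). The WT values fell into a pair at 6.19 and 6.84 cpm and a pair at 0.867 and 0.506 cpm, within the CD range of 0.366 to 1.24 cpm. The log2 fold change was -1.96 (SE, 0.81; FDR = 0.9806 in the edgeR test), with an unadjusted p of 0.0309, where 4.55% of the 10141 genes tested had a p below 0.05. Frrs1 passed the filter on low counts (5 cpm in at least 2 libraries) in these regions through WT libraries alone, so that these p values are no independent support. With no filter, the FDR by the same test was 0.646 in the cortex and 0.0252 in the cerebellum. Exact permutation tests (two-sided, on log2(cpm + 0.5)) of the cortex and cerebellum gave p = 0.314 and p = 0.343, where the design allows 0.0286. Over cortex and cerebellum together, with mouse as random block, the log2 fold change was -1.06 (SE, 0.66; FDR = 0.998 by limma-voom), and it was -0.47 without WT mouse m162 and -1.60 without WT mouse m164.

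The direction in the cortex depended on the transcript. Of the 5 Frrs1 transcripts in the table, XM_006501185.3 had the most counts (786 over 22 libraries), and NM_001113478.1 and NM_009146.3, which share their counts, had 114, or 14.5% as many, and never more than XM_006501185.3 in the same library. On the NM transcripts, WT hippocampi had 8, 15 and 13 counts (mice m162, m240 and m244) and CD hippocampi had 1, 11, 8 and 7 (mice m118, m138, m190 and m242), which is 1.80 ± 0.420 cpm (SD, n = 3) and 0.921 ± 0.462 cpm (SD, n = 4). WT cortices had 10, 4, 2 and 0 counts (mice m162, m164, m240 and m244) and CD cortices had 1, 8, 6 and 10 (mice m118, m138, m190 and m242), or 0.721 ± 0.660 cpm (SD, n = 4) and 0.917 ± 0.493 cpm (SD, n = 4). The mean was thus higher in CD cortices on the NM transcripts (two-sided exact permutation test, p = 0.6) and lower on the XM transcript. The further counts that only XM_006501185.3 holds were 15.8 ± 5.43 cpm (SD, n = 3) in WT and 4.51 ± 1.69 cpm (SD, n = 4) in CD hippocampi, and 5.81 ± 4.61 cpm (SD, n = 4) in WT and 1.82 ± 0.5 cpm (SD, n = 4) in CD cortices. Most of the difference between genotypes therefore lay in reads that were not counted for the NM transcripts.

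**Figure D2:**
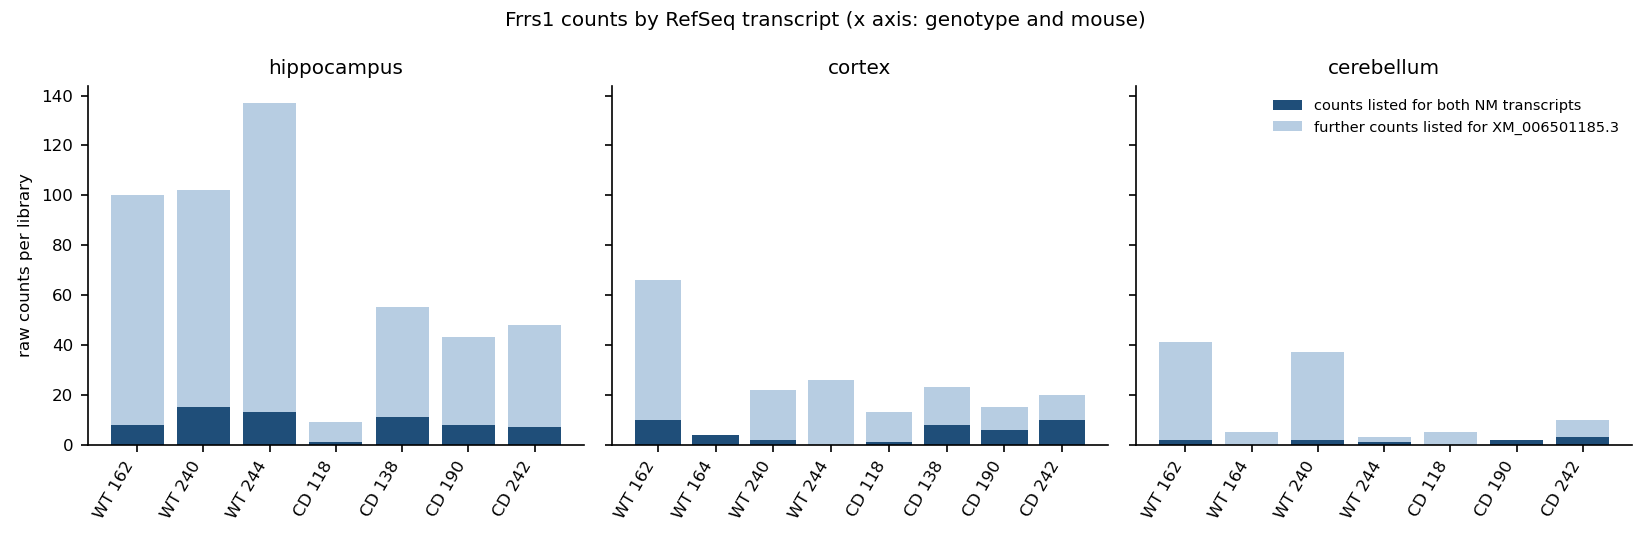
Raw Frrs1 counts (y axis) in each library (x axis, genotype and mouse), split into the counts listed for both NM transcripts (dark) and the further counts of XM_006501185.3 (light). The light part is largest in the 3 WT hippocampi (92, 87 and 124 counts) and is 0 in the WT cortex of mouse m164 (4 counts) and the CD cerebellum of mouse m190 (2 counts), whose counts all belong to the NM transcripts.

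Across the 22 libraries, the genes whose deviations from the region means followed Frrs1 most closely were Tek, an endothelial receptor of angiopoietins (Pearson's r = 0.793), Mfap5, a microfibril protein (r = 0.714), and Tinf2, a telomere protein (r = 0.699). These correlations are descriptions over libraries that share mice and depth, and the deviations still hold the genotype difference that chose Frrs1. Tek itself was 9.29 ± 2.82 cpm (SD, n = 3) in WT and 7.18 ± 2.15 cpm (SD, n = 4) in CD hippocampi, and 8.24 ± 0.499 cpm (SD, n = 3) in CD without mouse m118. Since Tek is an endothelial gene, the 8 endothelial markers were summed, and they gave 335 to 344 cpm in WT and 301 to 373 cpm in CD hippocampi, 374 to 390 and 367 to 398 cpm in the cortex, and 337 to 386 and 375 to 393 cpm in the cerebellum. The sums overlapped between genotypes in each region. Singly, 1, 2 and 1 of the 7 markers tested fell at an unadjusted p below 0.05 in hippocampus, cortex and cerebellum, where 4.22%, 3.3% and 4.55% of all genes tested had such a p in either direction. The median log2 fold change of the 7 in the hippocampus was -0.32, against -0.01 for all genes. Without mouse m118 it was -0.16 and 0 of the 7 fell. It was -0.07 in the cortex and -0.02 in the cerebellum. The 14 choroid plexus markers summed to 404 to 10180 cpm in WT and 459 to 5205 cpm in CD hippocampi, highest in WT mouse m244, which also had the highest Frrs1 level (23.4 cpm). WT mice m162 and m240, with sums of 404 and 575 cpm, had 17.3 and 12.1 cpm of Frrs1. CD mice m118, m138, m190 and m242, with sums of 459, 1770, 5205 and 849 cpm, had 2.26, 6.36, 6.31 and 6.78 cpm. The part of choroid plexus RNA in the Frrs1 difference was not tested. Frrs1l, the paralog whose protein assembles with AMPA receptors, was 116 ± 57.7 cpm (SD, n = 3) in WT and 136 ± 69.9 cpm (SD, n = 4) in CD hippocampi, with overlapping groups, and 103 ± 25.5 cpm (SD, n = 3) in CD without mouse m118, below WT.

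Other genes of iron handling were examined beside Frrs1. Of a list of 34 ferric reductases, iron transporters, ferritins and regulators of iron, 33 were in the table. In the hippocampus 23 were tested, of which 0 rose and 1, Frrs1 itself, fell at an unadjusted p below 0.05, and 4.22% of all genes tested had such a p. The median log2 fold change was -0.02 against -0.01 for all genes tested. Without mouse m118, again 1 of 23, Frrs1, fell and 0 rose, with a median of -0.03. In the cortex 3 of 24 fell and 0 rose, where 3.3% of all genes tested had such a p, so that the share of the list was above that of all genes. These were Frrs1, Hfe, a regulator of iron uptake that binds the transferrin receptor (14.3 ± 4.78 cpm in WT and 7.96 ± 2.03 cpm in CD, SD, n = 4 each), and Ireb2, an RNA-binding protein that senses cellular iron (6.39 ± 0.697 and 3.09 ± 1.84 cpm, SD, n = 4 each). The count includes Frrs1, which was tested there through WT libraries alone, so that no excess of the list is read from it. In the cerebellum 1 of 24, Frrs1, fell, against 4.55% of all genes. On this list 0 genes passed the thresholds, and Hfe and Ireb2 both had an FDR of 0.9998 (edgeR). Plppr4, a synaptic phospholipid phosphatase-related protein 411 kb from Frrs1, had a log2 fold change of 0.07 (SE, 0.18; -0.09 without mouse m118) in the hippocampus, and 0 of the 5 tested genes within 500 kb had an unadjusted p below 0.05.

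Gm34045 and Gm36251 were higher in CD hippocampi, were near 0 in the cerebellum, and did not separate the genotypes in the cortex. Gm34045 had 4, 5 and 1 counts in WT hippocampi (mice m162, m240 and m244) and 8, 59, 15 and 71 counts in CD hippocampi (mice m118, m138, m190 and m242). The lowest CD library, that of mouse m118, lay above the highest WT library, and mice m138 and m242 stood well above the other CD mice. In cpm these are 0.485 ± 0.277 (SD, n = 3) and 5.26 ± 3.87 (SD, n = 4), a ratio of 10.8, and without mouse m118 the CD mean was 6.35 ± 3.93 cpm (SD, n = 3) and the ratio 13.1. Its log2 fold change was 3.41 (SE, 0.71; 3.64 without mouse m118), at rank 2 of 9964 by p with an FDR of 0.9975 in the edgeR test, a description of the contrast that chose it. Only the libraries of CD mice m138 and m242 reached 5 cpm, so that with either of them left out Gm34045 was no longer tested.

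Gm36251 had 0, 1 and 0 counts in WT hippocampi (mice m162, m240 and m244) and 7, 19, 13 and 50 counts in CD hippocampi (mice m118, m138, m190 and m242). Every CD library again exceeded every WT library, and 2.68% of the genes tested in the hippocampus showed that order. The CD level was 3.23 ± 2.56 cpm (SD, n = 4), or 3.72 ± 2.89 cpm (SD, n = 3) without mouse m118, and mouse m242 alone was at 7.06 cpm against 1.76 to 2.20 cpm in the others. With 89 counts in CD and 1 count in WT hippocampi, the ratio of summed counts per effective library size was 67.3, with an exact 95% counting interval of 11.8 to 2690 that leaves out the spread between mice. Gm36251 reached 5 cpm in 1 hippocampus and was left out by the filter. With no filter it ranked 1 of 20515 genes, with an FDR of 0.000126 in the edgeR test, and 6 genes were past the thresholds, among them Frrs1 and Gm34045. Without WT mouse m240, the only one with a count, the FDR of Gm36251 with no filter was 0.0122, and 1 gene, Frrs1, was past the thresholds. The interval, rank, FDR values and calls here describe the hippocampal contrast that chose these genes, and they are no test.

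In the cortex, which was not used to choose them, Gm34045 had 8, 6, 6 and 4 counts in WT mice m162, m164, m240 and m244 and 10, 2, 13 and 19 in CD mice m118, m138, m190 and m242. The level was 1.37 ± 0.153 cpm (SD, n = 4) in WT against 1.70 ± 0.958 cpm (SD, n = 4), with 3 CD cortices above the WT range and the fourth, of mouse m138, below it (two-sided exact permutation test, p = 0.971). Mouse m138 had the second highest Gm34045 count in the hippocampus and the lowest in the cortex. Gm36251 had 32, 28, 38 and 17 counts in WT and 32, 30, 70 and 55 counts in CD cortices, in the same order of mice, or 6.57 ± 1.36 cpm (SD, n = 4) and 7.37 ± 3.36 cpm (SD, n = 4). Its log2 fold change was 0.17 (SE, 0.31; FDR = 0.9998 in the edgeR test), and an exact permutation test gave p = 0.857. The WT cortex thus held Gm36251 at a level that no CD hippocampus except that of mouse m242 reached. In the cerebellum, Gm34045 had 3, 2, 6 and 0 counts in WT and 0 counts in all 3 CD libraries, and Gm36251 had 2, 0, 0 and 0 counts in WT and 2, 2 and 0 in CD libraries (mice m118, m190 and m242). At most 6 counts were found for either gene in a cerebellum. Exact permutation tests detected no difference between genotypes at this depth (p = 0.143 for Gm34045 and p = 0.257 for Gm36251). Gm34045 had 11 counts in all WT and 0 in all CD cerebella, a direction opposite to that in the hippocampus. With no filter, the edgeR test of Gm34045 there gave an unadjusted p of 0.0103 and an FDR of 0.585.

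Over the 22 libraries, Gm34045 and Gm36251 deviated from their region means together, with Pearson's r = 0.776. This was the highest among the 10 pairs of the 5 genes. The next was 0.592 for Gm40250 and Tm6sf2 and the lowest was -0.395 for Frrs1 and Gm36251. The deviations still hold the genotype differences that chose these genes, so that the correlations are descriptions and no support. For Gm34045 only Dio3, the enzyme that inactivates thyroid hormone, was closer (r = 0.794), and Kit, a receptor tyrosine kinase, followed (r = 0.766). For Gm36251, Cdh22, a cadherin, came before it (r = 0.791) and Znhit3 after it (r = 0.717). Dio3 had 0.854 to 1.38 cpm in WT and 1.51 to 7.34 cpm in CD hippocampi, and Cdh22 had 10.3 to 12 and 12.6 to 16.9 cpm, so that in both the CD libraries lay above the WT ones. Without mouse m118 the lowest CD values were 2.35 cpm for Dio3 and 15.1 cpm for Cdh22. These values come from the same hippocampi that chose the noncoding RNAs and are no support for them. Because Gm36251 was higher in the cortex than in the hippocampus, the 8 cortical markers were summed in each hippocampus. They gave 612, 673 and 690 cpm in WT and 655, 686, 694 and 789 cpm in CD hippocampi, highest in mouse m242, which also had the most Gm36251 and Gm34045. WT hippocampi of mice m162 and m240, with 673 and 690 cpm of cortical markers, had 0 and 1 counts of Gm36251, while the CD hippocampus of mouse m118, with 655 cpm, had 7 counts. The part of adjoining tissue in these levels was not tested.

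The neighbours of these RNAs had small differences in the hippocampus. Dyrk2, a protein kinase, and Cand1, an exchange factor of cullin ligases, flank Gm34045 at 246 and 58.0 kb and had log2 fold changes of -0.02 (SE, 0.16) and 0.09 (SE, 0.12), or 0.01 and 0.15 without mouse m118. Of the 3 genes tested within 500 kb of Gm34045, 0 had an unadjusted p below 0.05. Gm36251 lies in a sparse region, with 0 tested genes within 500 kb, and the nearest ones, 2900079G21Rik and Pdcd6ip, a component of endosomal sorting, had log2 fold changes of -0.11 (SE, 0.26) and 0.18 (SE, 0.20), or 0.01 and -0.01 without mouse m118. Next in rank by p in the hippocampus were Hs6st2, a heparan sulfate sulfotransferase (log2 fold change, 1.08), Galnt9, a transferase of O-glycans (0.73), and Dcn, the proteoglycan decorin (1.40), all with an FDR of 0.9975 in the edgeR test.

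Gm40250 was high in CD cortices and nearly absent from WT cortices, and it varied widely in both genotypes elsewhere. In the cortex it had 1, 4, 3 and 4 counts in WT mice m162, m164, m240 and m244 and 69, 190, 29 and 190 counts in CD mice m118, m138, m190 and m242. The smallest CD count was thus several times the largest WT count, and 1.39% of the genes tested in the cortex had all CD libraries above all WT libraries, while 1.16% had all of them below. The level was 0.825 ± 0.596 cpm (SD, n = 4) in WT against 17.5 ± 10.5 cpm (SD, n = 4), a ratio of 21.2. As a description of the contrast that chose it, the log2 fold change was 4.65 (SE, 0.61), at rank 1 of 9927 in the edgeR test. Its FDR of 0.0205 did not pass the threshold of 0.01. The gene at rank 2, Gm2694, had a log2 fold change of 1.10 and an FDR of 0.9998. Of the 9927 genes, 0.0% were past the thresholds (0 genes, with 328 at an unadjusted p below 0.05), while DESeq2 called 1 gene, Gm40250. With each cortex library left out in turn, the FDR of Gm40250 in edgeR ran from 0.000363 (without CD mouse m190) to 0.322 (without WT mouse m240). It was under 0.01 only without m190, at 0.205 without WT mouse m162 and at 0.144 without WT mouse m164.

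The hippocampus and cerebellum of the same mice did not repeat that separation. Hippocampal counts of Gm40250 were 66, 81 and 4 in WT mice m162, m240 and m244 and 8, 254, 28 and 20 in CD mice m118, m138, m190 and m242. WT mice m162 and m240, with 1 and 3 counts in the cortex, were higher in the hippocampus than 3 of the 4 CD mice, and only CD mouse m138 was above the WT range. The level was 7.24 ± 5.75 cpm (SD, n = 3) in WT against 9.58 ± 13.2 cpm (SD, n = 4), or 12.1 ± 15.0 cpm (SD, n = 3) in CD without mouse m118. The log2 fold change was 0.48 (SE, 0.86; FDR = 0.9975 in edgeR; two-sided exact permutation, p = 0.914), and it became 0.76 without mouse m118, -1.24 without CD mouse m138 and -0.02 without WT mouse m244. In the cerebellum the counts were 6, 32, 2 and 10 in WT mice m162, m164, m240 and m244 and 1, 0 and 42 in CD mice m118, m190 and m242, with 2.13 ± 2.35 cpm (SD, n = 4) and 1.80 ± 2.95 cpm (SD, n = 3). The log2 fold change was -0.01 (SE, 1.03; FDR of 1 in edgeR; two-sided exact permutation, p = 0.514). Over both regions together (limma-voom, mouse as random block) the estimate was -0.28 (SE, 1.20; FDR = 0.9998). That error leaves room for changes of several-fold either way. CD mouse m242 was high in the cortex (190 counts) and in the cerebellum (42 counts) and low in the hippocampus (20 counts).

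Gm40250 is a single transcript of 419 bases whose 3′ end overlaps the 3′ end of 5730409E04Rik, a protein-coding gene on the other strand at chr4:126609854-126614371, by 5 bases. The sources used here do not state whether strand was kept in counting, and reads at this shared end cannot then be told apart. 5730409E04Rik was far steadier, at 38.4 ± 10.9 cpm (SD, n = 4) in WT and 34.2 ± 4.28 cpm (SD, n = 4) in CD cortices, with a log2 fold change of -0.18 (SE, 0.18; FDR = 0.9998 in the edgeR test). Ago1, an Argonaute protein 146 kb away, and Psmb2, a proteasome subunit 62.9 kb away, had log2 fold changes of 0.01 (SE, 0.13) and 0.11 (SE, 0.17), and of 14 genes tested within 500 kb, 1 fell and 0 rose at an unadjusted p below 0.05, which 3.3% of all genes tested in the cortex had. The genes most like Gm40250 over the 22 libraries were Pim2, a serine/threonine kinase (r = 0.755), the noncoding RNA Gm2694 (r = 0.701) and Abraxas2, a scaffold of a deubiquitinating complex (r = 0.69). Their cortical levels were 39.2 ± 4.30 and 49.1 ± 1.46 cpm for Pim2, 5.43 ± 0.957 and 11.6 ± 2.40 cpm for Gm2694, and 21.6 ± 2.10 and 26.1 ± 2.51 cpm for Abraxas2 in WT and CD (SD, n = 4 each). These correlations and levels come from the libraries that chose Gm40250 and are descriptions.

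Tm6sf2 had a smaller difference than the other genes, and it had the same direction in the 3 regions that together chose it. Hippocampal counts were 43, 36 and 12 in WT mice m162, m240 and m244 and 18, 81, 73 and 44 in CD mice m118, m138, m190 and m242. The groups overlapped there, since CD mice m118, at 4.53 cpm, and m242, at 6.21 cpm, lay within the WT range of 2.05 to 7.43 cpm. The levels were 4.59 ± 2.70 cpm (SD, n = 3) in WT and 7.70 ± 2.84 cpm (SD, n = 4) in CD, or 8.76 ± 2.31 cpm (SD, n = 3) without mouse m118. Cortical counts were 33, 16, 11 and 11 in WT mice m162, m164, m240 and m244 and 36, 57, 33 and 52 in CD mice m118, m138, m190 and m242, and every CD cortex was above every WT cortex. The levels were 6.86 ± 1.16 cpm (SD, n = 4) against 3.87 ± 1.15 cpm (SD, n = 4). Cerebellar counts were 60, 67, 36 and 43 in WT mice m162, m164, m240 and m244 and 73, 58 and 99 in CD mice m118, m190 and m242. These are 8.64 ± 2.23 cpm (SD, n = 4) and 12.6 ± 2.14 cpm (SD, n = 3), with the CD library of mouse m190 inside the WT range. Log2 fold changes were 0.78 (SE, 0.40; 0.95 without mouse m118) in the hippocampus, 0.81 (SE, 0.28) in the cortex and 0.54 (SE, 0.22) in the cerebellum. Over the 3 regions it was 0.76 (SE, 0.19; 0.81 without that library), and Tm6sf2 had rank 1 of 11137 with an FDR of 0.9997 by limma-voom. All 11 CD libraries were above the WT median of their region, and 8 were above the whole WT range. Since these contrasts chose Tm6sf2, nothing is read from that. Among all genes tested, 14.0%, 12.5% and 18.3% had all CD libraries above the WT median in hippocampus, cortex and cerebellum, and 1.39% had all above the WT range in the cortex. In the cerebellum, 2.47% of the genes tested had all CD libraries above and 2.87% all below the WT libraries, and 0.0% were past the thresholds.

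Of the 43 listed genes of lipid droplets, lipoproteins and EXPERA proteins, all were in the table. In the hippocampus 1 of 31 tested rose and 2 fell at an unadjusted p below 0.05, where 4.22% of all genes tested had such a p, so that the share of the list was above that of all genes. Without mouse m118 the one that rose was Tm6sf2, and the same 2 fell. Mboat7, a lysophospholipid acyltransferase, was 446 ± 43.9 cpm in WT (SD, n = 3) and 528 ± 40.6 cpm in CD (SD, n = 4), or 529 ± 49.7 cpm (SD, n = 3) without mouse m118. Abcg1, a sterol exporter, was 11.7 ± 0.279 and 8.71 ± 1.20 cpm, and Lpl, lipoprotein lipase, was 147 ± 3.35 and 126 ± 10.9 cpm. Without mouse m118, CD hippocampi had 8.51 ± 1.39 cpm of Abcg1 and 121 ± 3.81 cpm of Lpl (SD, n = 3 each). With all libraries, Mboat7, Abcg1 and Lpl each had an FDR of 0.9975 (edgeR) and went in both directions. Tm6sf2 was chosen on these libraries. No excess of the list is therefore read from these counts. In the cortex, where 3.3% of all genes had such a p, 1 of 32 rose, Tm6sf2 itself, and 1 fell, Lpin1, a phosphatidate phosphatase (16.7 ± 1.79 and 12.9 ± 1.25 cpm, SD, n = 4 each). In the cerebellum, where 4.55% did, 1 of 33 rose, again Tm6sf2, and 0 fell. The median log2 fold change of the list was -0.03, 0.03 and -0.04 in hippocampus, cortex and cerebellum, and 0 of its genes were past the thresholds. The paralog Tm6sf1 had 1.94 ± 0.703 and 2.26 ± 0.927 cpm in WT and CD hippocampi (SD, n = 3 and 4), or 2.35 ± 1.12 cpm (SD, n = 3) in CD without mouse m118. It had 2.90 ± 1.72 and 4.33 ± 1.85 cpm in the cortex (SD, n = 4 each) and 3.95 ± 1.23 and 4.70 ± 1.02 cpm in the cerebellum (SD, n = 4 and 3). Sugp1, a splicing factor 0.58 kb upstream, and Hapln4, a perineuronal matrix link protein 3.46 kb downstream, had log2 fold changes over the 3 regions of -0.09 (SE, 0.08) and -0.07 (SE, 0.08). Of the 33 genes tested within 500 kb, 0 had an unadjusted p below 0.05, against 3.58% of all genes tested over the 3 regions. The genes most like Tm6sf2 over the 22 libraries were Calr, the chaperone calreticulin (r = 0.77), Ckmt1, mitochondrial creatine kinase (r = 0.748), and Vopp1 (r = 0.715). These correlations too are descriptions, since the deviations hold the genotype difference that chose Tm6sf2. After it in rank by p over the 3 regions came Tnfrsf25 (log2 fold change, -1.35), Cenpe (-0.84) and Tulp4 itself (-0.65).

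**Figure D3:**
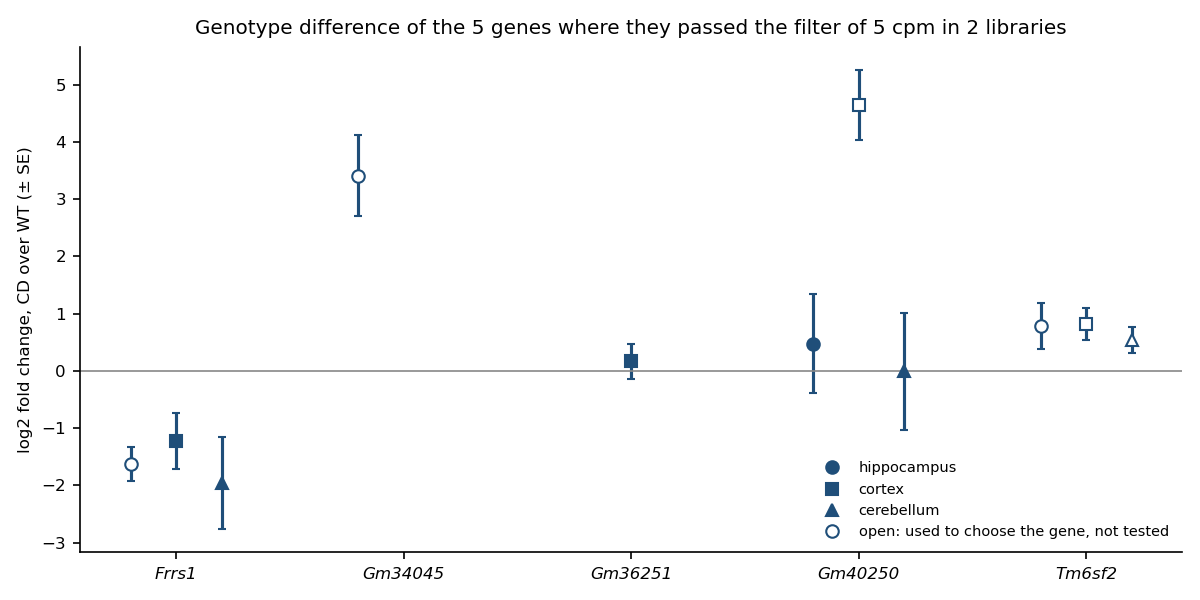
Log2 fold change of CD over WT (y axis, with SE) of each gene (x axis) in the regions where it passed the filter on low counts. Open symbols are contrasts used to choose the gene. Frrs1 is below 0 and Tm6sf2 above 0 in the 3 regions, and Gm40250 is at 0.48 in the hippocampus and -0.01 in the cerebellum against 4.65 in the cortex.

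Mice thus differed in whether a gene's direction in the region that chose it returned in their other regions. For Frrs1, all 7 CD libraries of the cortex and cerebellum were below the WT median of their region, but 6 of the 7 were within the WT range and 1 was below it. Of the 9267 genes tested in both regions, 1.86% had all CD libraries below the WT medians. Frrs1 was tested there through WT libraries alone, so that this order is no independent support. For Gm34045, 3 of those 7 libraries were above the WT range, all cortical, 3 were within it and 1 was below. For Gm36251, 3 were above, 3 within and 1 below, and for Gm40250, 1 of the 7 CD libraries of the hippocampus and cerebellum was above, 4 were within and 2 were below. Several of these positions rest on few counts. For Gm34045, the CD cerebella within the range had 0 counts. For Gm36251, the CD cerebella above it, of mice m118 and m190, had 2 counts each, as did WT mouse m162. For Gm40250, the CD cerebella below it, of mice m118 and m190, had 1 and 0 counts. Over the genes tested, 18.1% of CD libraries were above and 16.9% below the WT range in the cortex, 18.9% and 19.6% in the cerebellum, and 22.9% and 24.4% in the hippocampus. Gm34045 in the cortex and cerebellum, and Gm36251 in the cerebellum, did not pass the filter and are not among those genes. Among CD mice, mouse m242 had the highest Gm34045 in hippocampus and cortex, mouse m138 the highest Gm40250 in both, and mouse m190 the highest Gm36251 in the cortex but not in the hippocampus. Among WT mice, mouse m244 had the highest Frrs1 in hippocampus (23.4 cpm) and cortex (10.3 cpm) and the lowest in the cerebellum (0.506 cpm).

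**Figure D4:**
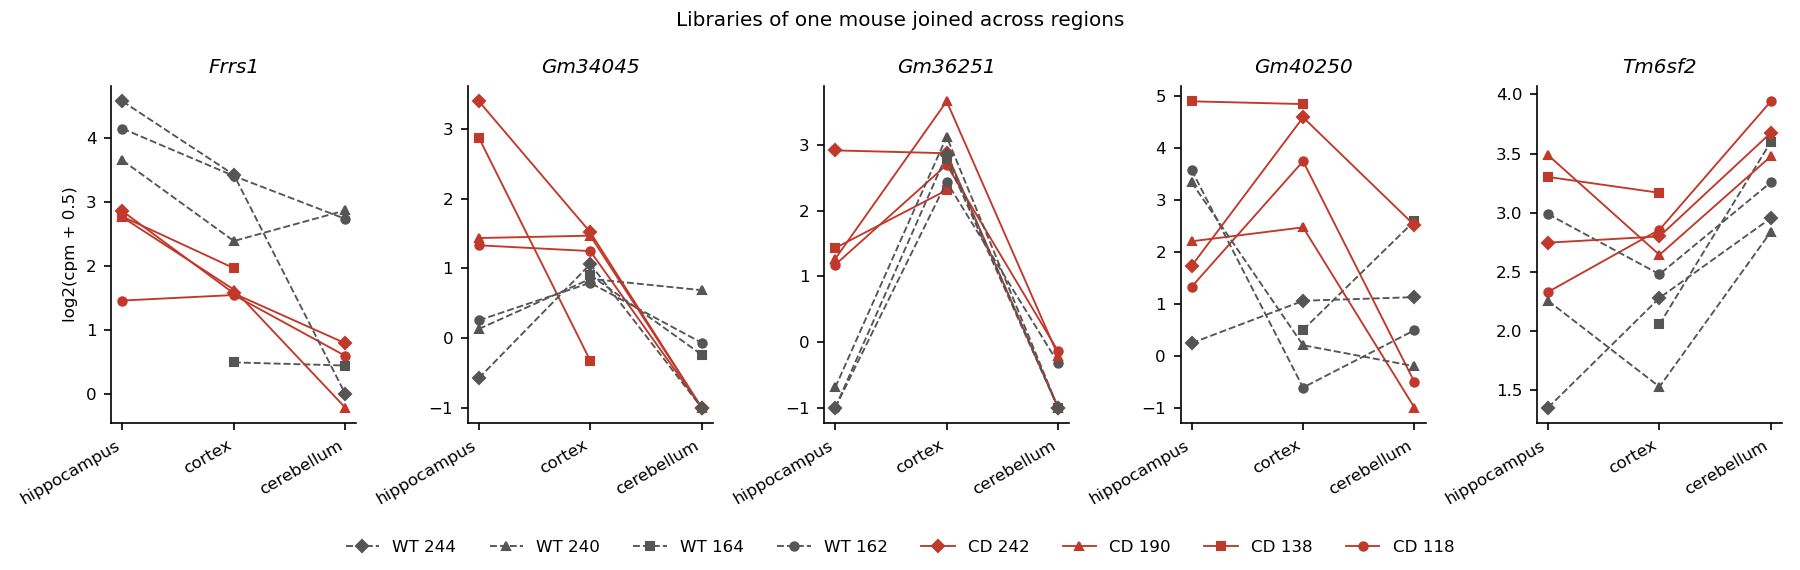
Level of each gene on a log2(cpm + 0.5) scale (y axis) in the 3 regions (x axis), with the libraries of a mouse joined (WT dashed grey, CD solid red). Lines cross in each panel. For Gm40250, CD mouse m242 is at 2.82 cpm in the hippocampus and 23.6 cpm in the cortex.

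The genes also differed between regions, a comparison that the rule did not use and that was made over both genotypes in edgeR. The pooled levels include the CD libraries that chose each gene, and are given as a description of these libraries. Frrs1 was highest in the hippocampus, at 10.6 ± 7.44 cpm (SD, n = 7), then the cortex, at 4.64 ± 3.61 cpm (SD, n = 8), and the cerebellum, at 2.43 ± 2.81 cpm (SD, n = 7). Cerebellum against hippocampus was the pair past the thresholds for Frrs1, with a log2 difference of -2.43 (SE, 0.46; FDR = 5.83e-05). Neighbours in that order, with FDR of 0.0140 and 0.0357, did not differ beyond the threshold, although the former reached 0.0079 without the hippocampus library of mouse m118. Gm36251 was at 6.97 ± 2.41 cpm (SD, n = 8) in the cortex. It was lower in the hippocampus (FDR = 8.17e-07) and in the cerebellum (FDR = 1.56e-09), at 1.86 ± 2.49 and 0.154 ± 0.194 cpm (SD, n = 7 each), values that did not differ beyond the threshold (FDR = 0.346). Gm34045 was at 3.22 ± 3.75 cpm (SD, n = 7) in the hippocampus and 1.54 ± 0.659 cpm (SD, n = 8) in the cortex (FDR = 0.886), with means of 0.485 and 1.37 cpm in WT and 5.26 and 1.70 cpm in CD. The means were thus in opposite order in the genotypes, which was not tested. It was lower in the cerebellum, with 11 counts in all 7 libraries (FDR = 0.000767 and 0.000467). Gm34045 passed the filter only through the CD hippocampi of mice m138 and m242, and Gm36251 mainly through cortices. Their FDR values are thus no independent support for a difference between regions. Since a group of both RNAs is at or near 0 counts, their fitted log2 differences are not given. Tm6sf2 was highest in the cerebellum, at 10.3 ± 2.91 cpm (SD, n = 7). The excess was 1.01 (SE, 0.22; FDR = 0.000346) on the log2 scale over the cortex. It was higher by 0.80 (SE, 0.22; FDR = 0.00328) over the hippocampus, the latter a fold change under 2. Gm40250 was at 7.24 and 0.825 cpm in WT hippocampus and cortex and at 9.58 and 17.5 cpm in CD, again in opposite order and not tested. It was past the thresholds in no pair, with the smallest FDR, 0.0135, for cerebellum against hippocampus, which was 0.00766 without the hippocampus library of mouse m118. In all, 6 of 15 such tests were past the thresholds, against 8.41% of 11137 genes between cortex and hippocampus, 22.8% between cerebellum and hippocampus and 22.6% between cerebellum and cortex. The 6 include tests of Gm34045 and Gm36251, so that this count is a description.

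The 5 genes shared a low level, and 2 of them, Frrs1 and Gm40250, had an unusually large spread between libraries of the same group. Their mean over 22 libraries was 1.67 cpm for Gm34045, 3.18 cpm for Gm36251, 5.85 cpm for Frrs1, 6.69 cpm for Gm40250 and 7.27 cpm for Tm6sf2. Between 0.269% (Gm34045) and 21.9% (Tm6sf2) of the 11137 genes tested over all libraries had a lower mean. The SD within groups on the log2(cpm + 0.5) scale was 1.39 for Gm40250 and 0.965 for Frrs1, higher than in 99.9% and 99.7% of the genes tested. It was also higher than in 99.9% and 99.4% of those whose mean was within 2-fold of theirs. For Gm34045, Gm36251 and Tm6sf2 it was 0.68, 0.506 and 0.453, higher than in 98.0%, 92.3% and 88.7% of the genes tested. Of genes of like mean, 84.6%, 72.3% and 82.3% had a lower SD than these 3. Long noncoding RNAs were 3 of the 5 genes and 3.36% of the genes tested. These shares describe the genes and are no test, since the genes were chosen on the same libraries.

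**Figure D5:**
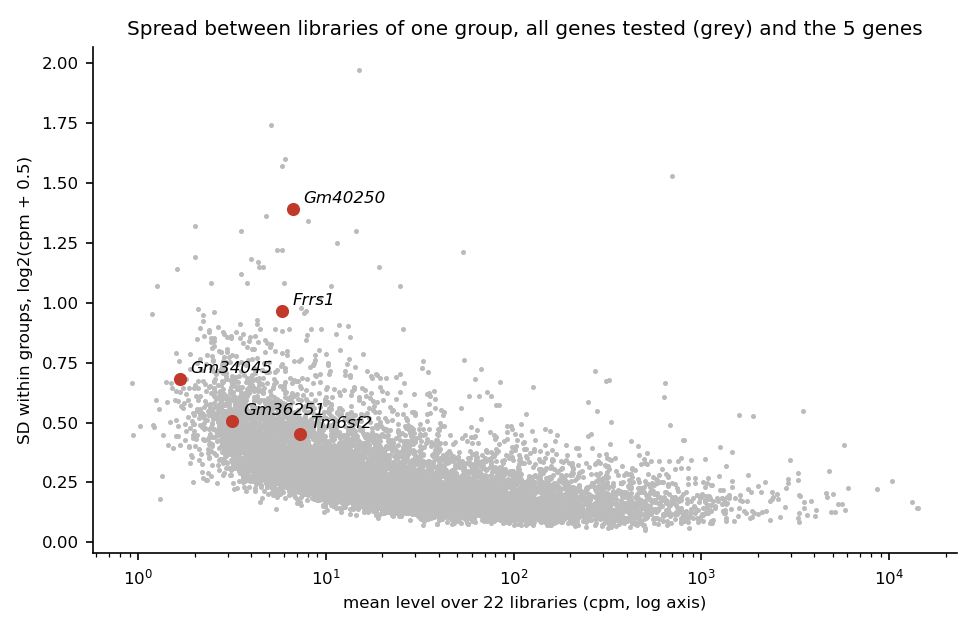
SD between libraries of one genotype and region on the log2(cpm + 0.5) scale (y axis) against mean level (x axis, cpm, log axis) for the 11137 genes tested (grey) and the 5 genes (red). Gm40250, at 1.39, and Frrs1, at 0.965, lie at the upper edge of genes of their level, and the other 3 lie lower but above most genes of their level.

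Markers of tissue outside the dissected regions also differed between libraries. The 5 pituitary hormone genes summed to 2.20 to 126 cpm in CD and 3.59 to 10.7 cpm in WT hippocampi, to 3.57 to 86.4 and 1.58 to 4.98 cpm in cortices, and to 2.11 to 95.9 and 2.87 to 14.1 cpm in cerebella, highest in CD mice m190, m190 and m118. At an unadjusted p below 0.05 (edgeR), 2 of 2 tested rose in the hippocampus, 1 of 1 in the cortex and 2 of 2 in the cerebellum. Such a p was found for 4.22%, 3.3% and 4.55% of all genes tested there. Without mouse m118, 2 of 2 rose in the hippocampus as well. In CD mice m118, m138, m190 and m242, the pituitary sums were 36.0, 2.20, 126 and 16.1 cpm in hippocampi, with Gm40250 at 2.01, 29.4, 4.11 and 2.82 cpm. In cortices of these mice the sums were 17.0, 3.57, 86.4 and 12.8 cpm, with Gm40250 at 12.9, 28.3, 5.05 and 23.6 cpm. In CD cerebella (mice m118, m190 and m242) they were 95.9, 66.7 and 2.11 cpm, with Gm40250 at 0.204, 0 and 5.21 cpm. Blood markers were highest in CD mouse m118 in each region, at 13060, 14040 and 12890 cpm, against at most 8681 cpm in any WT library. In the hippocampus, 0 of the 5 blood markers had an unadjusted p below 0.05 with all libraries, and 4 fell without mouse m118. That mouse had the lowest level of each of the 5 genes among CD hippocampi. The part of blood or pituitary RNA in these differences was not tested.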

How the data were processed

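RNA of 22 libraries was sequenced by the authors with CelSeq2, which tags molecules with a 6-base identifier, mapped by STAR to mm10, and counted by ESAT. The deposited table holds raw counts per RefSeq transcript, and the authors' own comparisons were not used. Whether counting used the identifiers or the strand is not given in the sources used here. Of 85964 transcripts, 69288 were matched to a gene, and the transcript with the highest total over all libraries stood for each of 23037 genes. There were 2760846 to 8858937 counts per library, so that 3 counts were worth 0.347 to 1.19 cpm. Genotype, region and mouse came from the labels.

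Within a region, genes that reached 5 cpm in 2 or more libraries were tested between CD and WT with edgeR 4.0.16 (quasi-likelihood, TMM within the region), and over several regions with limma 3.58.1 (voom; the block was the mouse, as a random effect), in R 4.3.3. A call was an FDR (Benjamini-Hochberg) under 0.01 with a change of more than 2-fold either way. Two-sided exact permutation tests on log2(cpm + 0.5), 8 in all, were run in Python 3.11.15 in regions not used to choose a gene. DESeq2 1.42.0, the edgeR likelihood ratio test, other scalings, filters and pseudocounts, and leaving out each library were alternatives. Leaving the hippocampus of mouse m118 out of fits over several regions, gene lists, neighbours and companion genes was added after seeing the data. The scripts were tested on simulated data.

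The 5 genes, the gene lists and the tests were chosen with earlier results of these data known. Besides the 5 genes, the text names Tulp4, the paralogs, the nearest tested genes and those that overlap, the 3 genes most correlated with each, the 3 next in rank by p, and genes of the iron and lipid lists with an unadjusted p below 0.05. A gene that this rule names is not reported here. Libraries with the same mouse number come from the same animal, which is what pairs them. Their deviations from group means correlated across genes by 0.086 on average between hippocampus and cortex, 0.049 between hippocampus and cerebellum and -0.004 between cortex and cerebellum. Replicates are separate mice.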

Additional observations from a re-analysis of the deposited data

Results flagged for a closer look

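In groups of 4 libraries, a library was singled out where its gap to the nearest other exceeded Dixon's 95% critical value as a share of the range. Of 20 such groups of the 5 genes, 4 held one, where about 1 is expected for normally distributed values. Levels of a few counts need not be so distributed, and no excess is read from the 4. In CD hippocampi, Frrs1 was at 2.26 cpm in mouse m118 and at 6.31 to 6.78 cpm in the others, Gm36251 was at 7.06 cpm in mouse m242 and at 1.76 to 2.20 cpm in the others, and Gm40250 was at 29.4 cpm in mouse m138 and at 2.01 to 4.11 cpm in the others. In WT cerebella, Gm36251 was at 0.302 cpm (2 counts) in mouse m162 and had 0 counts in the others. A library that alone has counts is always singled out by this rule.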

How the results depend on the processing

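In the contrasts that chose them, 3 genes crossed the threshold of 0.01 with the tool or filter. Since these contrasts chose the genes, the FDR values are descriptions and no support. The FDR by DESeq2, by the edgeR likelihood ratio test and with no filter was 0.00337, 0.00153 and 0.000126 for Frrs1 in the hippocampus, 0.00643, 0.0018 and 0.000126 for Gm34045 there, and 9.5e-05, 1.26e-11 and 1.72e-14 for Gm40250 in the cortex, against 0.9975, 0.9975 and 0.0205 for these genes by the quasi-likelihood test. Counts of genes past the thresholds between genotypes were 0 in each region by edgeR's quasi-likelihood test (420, 328 and 461 genes at an unadjusted p below 0.05 in hippocampus, cortex and cerebellum). With no filter on low counts they were 6, 3 and 10. DESeq2 and the edgeR likelihood ratio test gave 2 in the hippocampus and 1 in the cortex each. Leaving out each library gave 0 to 1 in the cortex (1, Gm40250, without CD mouse m190) and 0 to 1 in the cerebellum (1 without CD mouse m242). With no filter, an alternative added after seeing the data, it gave 1 to 41, 5 to 17 and 8 to 17. The region differences of the 5 genes past the thresholds were 6, and 10 with no filter.

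With the mouse as a replicate block, 6 region differences were past the thresholds too. Without the replicate block, the log2 fold change was -1.06 for Frrs1 and 0.53 for Gm36251 over cortex and cerebellum, -0.35 for Gm40250 over hippocampus and cerebellum and 0.76 for Tm6sf2 over all regions. The block changed no call.

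Directions turned in these cases, and the cause was not tested. On the NM transcripts, chosen after seeing the data, Frrs1 differed by 0.30 in the cortex and 0.06 in the cerebellum (CD minus WT, log2). Gm34045 in the cortex was at -0.004 with a pseudocount of 0.1 cpm. With a library or mouse left out, Gm36251 ranged from -0.17 to 0.35 in the cortex, and Gm40250 from -1.24 to 0.90 in the hippocampus, -0.33 to 0.51 in the cerebellum and -1.08 to 0.50 over both. Levels of a few counts limit all 5 genes.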
